A study of Homo sapiens with 4 samples.

Results

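The baseline transcriptome of Hs578T cells was read from the 2 control libraries of a knockdown study, out of 4 libraries in all. Hs578T is an established human line from a breast carcinoma, and the labels describe its source as epithelial. Both libraries, called SCR, come from cells that received GFP together with a scrambled, non-targeting RNA at 1.6 µM, with RNA collected after 48 h. The members were chosen by the column names of the deposited count table that hold SCR, and the siTLN1 libraries (siRNA against TLN1) enter no result. The cells are therefore transfected controls of 1 line, grown in serum and insulin, and not untreated cells. The columns carry numbers that match no sample label, so the library with the lower number is called a and the other b. They are biological replicates by the series' design text, but no label says whether separate cultures were used, so their spread may be partly technical.

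Library a held 31854322 counts and library b 34794346, and 25557 and 25932 genes had at least 1 count. Levels are given in TPM, the usual length-scaled unit of transcript abundance: counts divided by the merged exon length of a gene and scaled to the same total in each library. A gene is called on at 1 TPM or more in both libraries, off under 0.1 TPM in both, low in between, and abundant at 100 TPM or more in both. Of 60721 genes in the table, 14300 (23.6%) were on and 34939 (57.5%) were off. Of 19920 protein-coding genes, 11534 (57.9%) were on, 5550 (27.9%) were off and 1684 (8.45%) were abundant. These shares are the background for every list below. A gene with 0 counts in a library can lie as high as the level of 3 counts, which is 0.417 TPM in library a and 0.364 TPM in library b for a gene of 1000 bases, a limit that covers counting error only.

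Epithelial cells are joined by E-cadherin junctions, tight junctions and desmosomes, carry keratin filaments and rest on a basement membrane. Mesenchymal cells such as fibroblasts instead carry N-cadherin and vimentin and secrete a matrix of fibronectin and fibrillar collagens, which they hold through integrins. Talin-1, the target of the study, links integrins to actin in both kinds of cell. Some breast carcinoma lines carry the mesenchymal set, a state described as claudin-low or basal B.

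The 4 genes named as marks of the control cells were all abundant. FN1, which encodes fibronectin (ENSG00000115414.20; GRCh38, chromosome 2, 215360440 to 215436073, minus strand), had 6749 TPM in library a and 5785 TPM in library b, a mean of 6267 ± 682 TPM (SD, n = 2). ACTG1, gamma-actin (chromosome 17, 81509971 to 81523847, minus strand), had 5680 and 5843 TPM, a mean of 5762 ± 116 TPM (SD, n = 2). CDH2, N-cadherin (chromosome 18, 27950966 to 28177130, minus strand), had 543 and 488 TPM, a mean of 515 ± 38.7 TPM (SD, n = 2). TLN1, talin-1 (chromosome 9, 35696948 to 35732195, minus strand), had 388 and 374 TPM, a mean of 381 ± 10.1 TPM (SD, n = 2). By mean TPM they ranked 11, 12, 250 and 374 of all genes, so fibronectin and gamma-actin stood among the 20 most abundant transcripts. The libraries lay closest for ACTG1 and TLN1, and library a was above b for FN1 and CDH2. ACTG1 has near-identical actin copies, and reads that map to several places were not counted, so its level is uncertain.

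The transcript pool was headed by mitochondrial, cytoskeletal and matrix genes. The 10 most abundant genes took 9.90% of all TPM in library a and 10.98% in library b, and the 100 most abundant 28.8% and 30.6%. The first 546 genes of library a and the first 486 of library b held 50% of the total. Of the 20 most abundant genes, 11 were encoded by the mitochondrial genome and 9 by the nucleus. MT-CO2, a subunit of cytochrome c oxidase, was first with 14763 and 18623 TPM. All 11 had a higher TPM in library b. Mitochondrially encoded genes together took 9.74% of TPM in library a and 11.5% in library b, but 1.90% and 2.36% of counts, in which length does not enter.

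The 9 nuclear genes among the first 20 encode an iron store, actin genes, matrix genes and a lectin. FTL, the ferritin light chain that stores iron, had 13796 and 12576 TPM. ACTB, beta-actin, had 10265 and 10678 TPM, and TMSB10, a thymosin that binds actin monomers, 9998 and 10492 TPM. With ACTG1 these make 3 actin genes or actin binders. The matrix was represented by FN1, by POSTN (periostin, a matricellular protein) with 5915 and 4994 TPM, by COL1A1 (the alpha 1 chain of type I collagen) with 5298 and 5471 TPM, and by SPARC (a collagen-binding glycoprotein) with 4874 and 4480 TPM. LGALS1, the secreted lectin galectin-1, had 4792 and 5124 TPM. Below them GAPDH, a glycolytic enzyme, had 3855 and 4040 TPM and VIM, vimentin, 3254 and 3193 TPM at rank 29. Among these nuclear genes the libraries lay furthest apart for POSTN and FN1, both higher in library a.

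**Figure D1:**
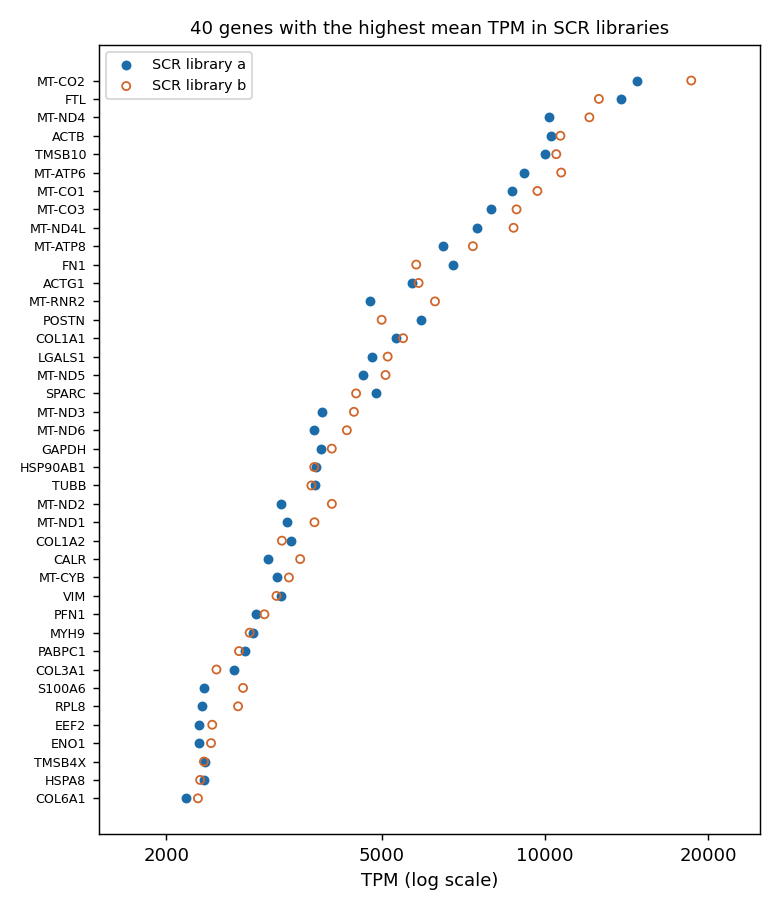
TPM on a log axis for the 40 genes with the highest mean TPM, with filled points for SCR library a and open points for SCR library b. Mitochondrial genes (names starting MT-) lie higher in library b, whereas FN1 (6749 and 5785 TPM) and POSTN (5915 and 4994 TPM) lie higher in library a.

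Among the 100 most abundant genes, 18 were mitochondrial, 12 encoded cytosolic ribosomal proteins and 70 were other nuclear genes. The 4 matrix lists (collagens, laminins and basement membrane, fibronectin with matricellular genes, proteoglycans) supplied 13 of the 100, and the lists of actin, integrin and adhesion genes another 13. The 120 matrix genes took 5.40% and 5.07% of all TPM, and the 116 actin and adhesion genes 5.93% and 5.99%. Ribosomal protein genes took 4.28% and 4.52%. The matrix share was higher in library a and the other 2 shares were higher in library b, by small amounts. Reads that map to several places were not counted and the length used enters each share, so the order of these shares is uncertain.

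Core promoters of the leading genes were searched for the TATA box. This is a short word just before the start that positions the transcription machinery. The word TATAA was searched on the sense strand in the 25 bases from -40 to -16 relative to the RefSeq start (GRCh38.p14), in 15293 protein-coding genes with a promoter in the table. It was present in 893 of them (5.84%). It was present in 17 of the 62 genes of the top 100 that had a promoter (27.4%), in 87 of 1379 abundant genes (6.31%), in 183 of 8090 genes on under 100 TPM (2.26%) and in 436 of 3803 off genes (11.5%). The reverse word TTATA was present in 282 of all promoters and in 1 of the 62. Among fibronectin, elastic fibre and matricellular genes that were on, 6 of 19 held TATAA. The stretches from -45 to -16 are printed for 5 genes of the matrix and cytoskeleton that hold the word, and for TLN1 and VIM, which do not, each 5′ to 3′ with TATAA in capitals:

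FN1 (chr2:215436084-215436113, minus strand): gggaggggaccgtcccaTATAAgccccggc

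CDH2 (chr18:28036657-28036686, minus strand): tcagtattccagtTATAAaaagctgcatcg

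POSTN (chr13:37598784-37598813, minus strand): acaactctgacatgtaTATAAattctgagc

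CCN2 (chr6:131951388-131951417, minus strand): gccgcccggagcgTATAAaagcctcgggcc

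TMSB10 (chr2:84905611-84905640, plus strand): gcggggcgcggcgtaTATAAggctaggggc

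TLN1 (chr9:35732211-35732240, minus strand): cgaccatagagcgcgggcccagggcgccgc

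VIM (chr10:17228196-17228225, plus strand): ggcggggactctgcaagaaaaaccttcccg

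The first base of the word lies at -28 in FN1, -32 in CDH2 and CCN2, -29 in POSTN and -30 in TMSB10. The RefSeq start used for CDH2 lies inside the gene as counted, whose 5′ end is at 28177130, so its stretch belongs to an internal start and not to the promoter of the longest form. The POSTN stretch also lies inside the gene as counted, 31 bases from its 5′ end at 37598844. The stretch used for ITGB1, a gene of the top 100 that holds the word, lies 70189 bases inside its gene. That of ACTG1 lies 11003 bases inside. A single RefSeq start was used per gene, so the class shares describe those starts and not always the promoter of the longest form. Which start these cells use was not measured. CpG content was higher in genes on than in off genes, whereas TATAA was less frequent (2.85% of genes on, 11.5% of off genes). The ratio of observed to expected CpG over the 300 bases had a median of 0.843 in promoters of genes on, 0.542 in low genes and 0.314 in off genes. It was under 0.6 in 1601 of 9469 genes on (16.9%) and in 2673 of 3803 off genes (70.3%). In the 62 genes of the top 100, where TATAA was present in 27.4%, the CpG median was 0.855. A match is a description of these letters and not evidence of use.

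The labels call the source epithelial, and 24 genes of epithelial identity were read beside that. Most of them were low or off, with keratins as the exception. Only 3 of the 24 (12.5%) were on, 7 were low and 14 were off, against 57.9% on and 27.9% off among protein-coding genes. CDH1, E-cadherin, had 13 and 18 counts, which is 0.296 and 0.358 TPM (exact Poisson 95% intervals 0.158 to 0.506 and 0.212 to 0.566, counting error only). EPCAM, an epithelial surface adhesion molecule, had 0 and 5 counts (0 and 0.250 TPM). Neither library reached 1 TPM for these genes. GRHL2, OVOL1 and OVOL2, transcription factors of epithelial cells, and KRT19, CLDN3, MARVELD3 and CRB3 had 0 counts in both libraries. For GRHL2 that allows up to 0.0689 and 0.0602 TPM. ESRP1, an epithelial splicing regulator, had 1 and 2 counts.

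The 3 epithelial genes that were on were all keratins of simple epithelium. KRT18 had 150 and 180 TPM, KRT8 11.03 and 12.7 TPM, and KRT7 6.95 and 8.83 TPM. KRT18 was thus abundant, although KRT8, its usual filament partner, was lower. With transcript length the mean of KRT18 moved from 165 to 194 TPM and that of KRT8 from 11.9 to 29.01 TPM. The size of the gap between them is uncertain. VIM exceeded KRT18 by 21.7-fold in library a (counting interval 21.004 to 22.5) and 17.7-fold in library b (17.2 to 18.3). The ratio of these means moved from 19.6 to 24.1 with transcript length. VIM shares 24.3% of its exon bases with a gene on the opposite strand, so its level is uncertain. CDH2 exceeded CDH1 by 1832-fold (1071 to 3442) and 1362-fold (862 to 2299). E-cadherin and EPCAM were thus low and the epithelial regulators GRHL2, OVOL1, OVOL2 and ESRP1 off, while 3 keratins were on. The label describes the source of the line, which these RNA levels do not test.

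Of 11 epithelial identity genes with a promoter in the RefSeq table, 6 hold the E-box word CAGGTG or its reverse complement CACCTG within 300 bases, against 3046 of 15293 (19.9%) of all protein-coding promoters, 25.1% of those of low genes and 24.6% of those of off genes. E-boxes of this form are known binding words of the ZEB and SNAI repressors. The 6 are OCLN, which was low, and RAB25, ELF3, CLDN7, CLDN3 and CRB3, which were off. The count rests on few genes and on a single RefSeq start per gene, and binding was not measured. For 3 off genes, 30 bases around the first word are shown with the word in capitals:

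RAB25 (chr1:156061107-156061136, plus strand): catctctccaccCACCTGggccccaggtct

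ELF3 (chr1:202010455-202010484, plus strand): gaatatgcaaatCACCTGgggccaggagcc

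CLDN7 (chr17:7262635-7262664, minus strand): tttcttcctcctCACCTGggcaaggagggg

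The mesenchymal list was on in full, 20 of 20 genes, and 13 of them were abundant. Among protein-coding genes 57.9% were on and 8.45% abundant. This list, like the others, was chosen with earlier results of these data known, so its being complete is no test of lineage. Among its transcription factors, SNAI2 (Slug) had 257 and 238 TPM, PRRX1 182 and 168 TPM, FOXC2 121 and 142 TPM, and ZEB1 62.2 and 55.0 TPM. TWIST1 had 55.1 and 61.5 TPM and TWIST2 43.5 TPM in each library. ZEB2 stood lower with 15.8 and 14.3 TPM, and SNAI1 (Snail) was the lowest of the list with 1.14 and 2.14 TPM. The repressors of epithelial genes thus differed widely in level, with Slug above ZEB1 and Snail near the line for on. Among surface genes of the list, AXL, a receptor tyrosine kinase, had 1299 and 1196 TPM, THY1 633 and 637 TPM, and NT5E (CD73) 289 and 258 TPM. CDH11, osteoblast cadherin, had 94.4 and 92.7 TPM.

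Markers of fibroblasts and stroma were on in 16 of 20 genes and those of smooth muscle and pericytes in 14 of 16. Beyond the collagens, LUM (lumican) had 944 and 874 TPM, FBN1 (fibrillin-1) 470 and 377 TPM, and DCN (decorin) 119 and 114 TPM. The platelet-derived growth factor receptors were on, PDGFRA with 103 and 88.2 TPM and PDGFRB with 79.6 and 80.3 TPM, as was FAP, fibroblast activation protein, with 55.6 and 49.6 TPM. TCF21 and PI16, which mark resting fibroblasts of tissue, had 0 counts. Of the contractile genes, ACTA2 (smooth muscle actin) had 634 and 652 TPM, CNN1 (calponin) 104 and 99.9 TPM, and MYOCD (myocardin) 24.5 and 18.3 TPM. MYH11, smooth muscle myosin, was low with 0.141 and 0.130 TPM, and DES, desmin, was off with 1 count in each library. ACTA2 shares over 20% of its exon bases with a gene on the other strand, so its count is uncertain.

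Genes of breast lineages were on in part, and the counts alone place no lineage. Of 20 basal and myoepithelial genes 14 were on (70%), and of 20 luminal genes 8 (40%), against 57.9% of protein-coding genes. KRT14 had 213 and 237 TPM and KRT17 143 TPM in each library, SFN (14-3-3 sigma) 202 and 224 TPM and EGFR 132 and 105 TPM. KRT5, the filament partner of KRT14, had 2 and 1 counts, KRT6A and KRT6B had 0, and TP63, the basal regulator, had 2.53 and 1.88 TPM. So KRT14 and KRT17 were abundant while KRT5 was off. Among luminal genes, ESR1 (estrogen receptor alpha) had 3 counts in each library, and PGR (progesterone receptor), TFF1 and AGR2 had 0. ERBB2 (HER2) had 30.6 and 29.8 TPM. GATA3 had 12.7 and 13.1 TPM and FOXA1 3.43 and 2.94 TPM. XBP1 (278 and 317 TPM), a secretory stress factor that many cells carry, and TBX3 (131 and 123 TPM) were the abundant members.

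Markers of other lineages were mostly low or off. Of 12 endothelial genes 3 were on, of 16 immune genes 2, and of 16 adipocyte, neural, melanocyte and liver genes 1, with summed levels of 10.9 and 9.18, 11.97 and 11.5, and 7.51 and 7.79 TPM. ERG, an endothelial transcription factor, was the highest endothelial gene with 4.36 and 3.55 TPM, while CDH5 had 0 and 1 counts and CLDN5 none. CSF1R, a receptor of macrophages, had 8.04 and 7.78 TPM, while the T and B cell genes CD3E, CD3D, CD2 and MS4A1 had 0 counts. AFP, alpha-fetoprotein, was the single gene on in the last list, with 4.26 and 4.40 TPM, and ALB had 0 and 2 counts.

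Cell-cell junction genes followed the same division. Claudins seal tight junctions, and 5 of 21 were on, none of them abundant. The highest was CLDN12 with 15.8 and 12.4 TPM, then CLDN1 with 6.51 and 5.66 TPM. CLDN4 lay at the line, with 1.48 TPM in library a and 0.904 TPM in library b, so it was low by the rule. Of 14 desmosome genes 5 were on. DSG2 had 83.0 and 63.0 TPM, JUP (plakoglobin) 22.1 and 25.6 TPM, DSP (desmoplakin) 21.2 and 18.4 TPM, PKP3 11.3 and 12.5 TPM and DSC3 7.42 and 6.29 TPM. A reduced desmosome set was thus on, while DSG1, DSG4 and PKP1 had at most 1 count in either library. Of 19 cadherins, 6 were on, in the order CDH2, CDH11, CDH13, CDH6, CDH18 and CDH24. CDH13, the anchor-linked T-cadherin, had 89.3 and 73.2 TPM, just under CDH11 in both libraries, and CDH6 had 19.6 and 16.8 TPM. The order of CDH11 and CDH13 turned with transcript length, which gave means of 108 and 197 TPM.

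Integrins pair an alpha with a beta subunit, and the alpha subunit sets much of the ligand choice. Of 18 alpha genes 11 were on, and of 8 beta genes 4. ITGB1, the shared partner of most alpha subunits, led with 1140 and 946 TPM, and ITGA5, which pairs with it as the main fibronectin receptor, had 823 and 809 TPM. ITGB5 had 465 and 482 TPM and ITGAV 169 and 124 TPM, and together these form a vitronectin receptor. The collagen-binding subunits were led by ITGA11 with 331 and 313 TPM, followed by ITGA2 with 71.9 and 60.8 TPM, ITGA10 with 10.4 and 13.8 TPM and ITGA1 with 10.3 and 7.80 TPM. ITGA10 and ITGA1 were level in library a and apart in library b. ITGA3 (133 and 132 TPM), a laminin-binding subunit, exceeded ITGA6 (14.004 and 13.3 TPM), and ITGB4, the hemidesmosome partner of ITGA6, was off with 4 and 3 counts.

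Fibronectin receptor subunits were therefore the most abundant alpha and beta genes in both libraries. The ratio of ITGA5 to ITGAV was 4.87 in library a (4.77 to 4.98) and 6.53 in library b (6.38 to 6.68), and that of ITGB1 to ITGB5 was 2.45 (2.41 to 2.49) and 1.97 (1.94 to 2.00). The libraries differ in these ratios by more than the counting intervals. The ratios of means moved from 5.57 to 7.92 and from 2.21 to 2.39 with transcript length. ITGA8 had 65.0 and 66.5 TPM, ITGA4 22.5 and 18.4 TPM, ITGB3 9.67 and 8.71 TPM and ITGB8 2.04 and 1.77 TPM. The leukocyte subunits ITGAL and ITGAD had 0 counts, and ITGAM, ITGAX and ITGB7 were off. ITGB3 shares over 20% of its exon bases with a gene on the same strand, so its count is uncertain.

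**Figure D2:**
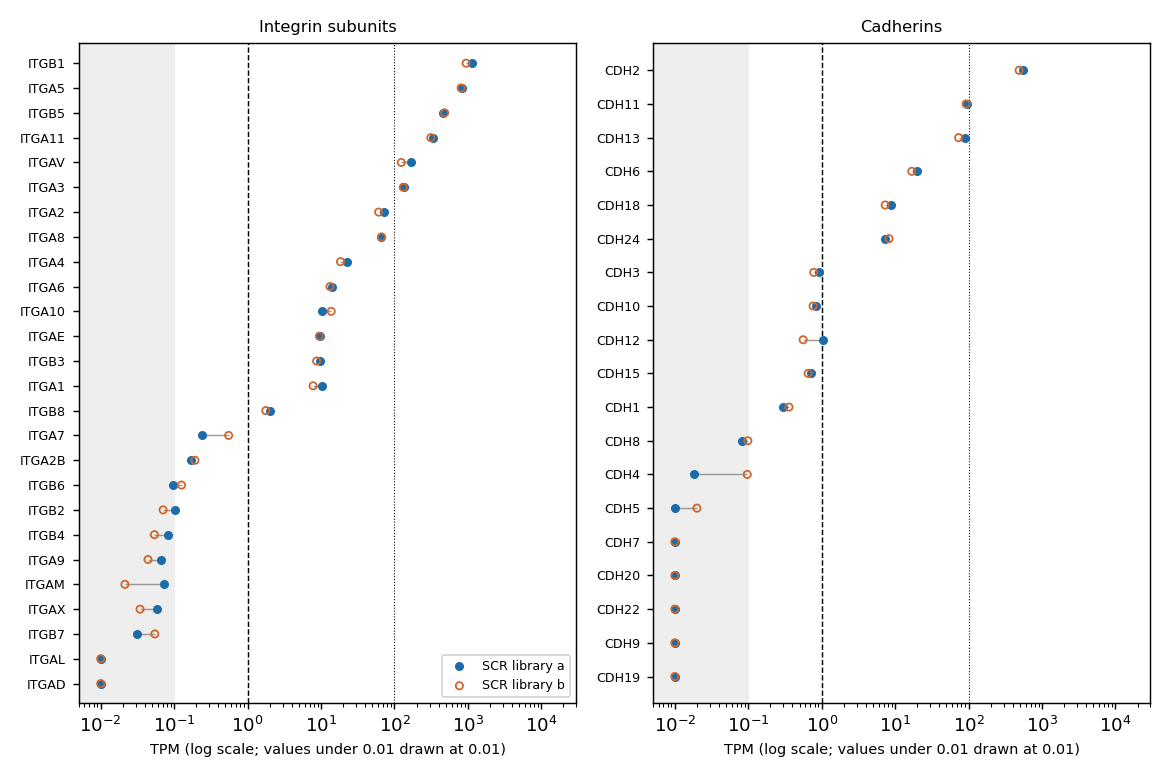
TPM on a log axis for integrin subunits and cadherins, filled points for SCR library a and open points for SCR library b, with lines at 1 TPM (dashed) and 100 TPM (dotted) and a shaded band under 0.1 TPM. ITGB1, ITGA5 and CDH2 lie at the top, and CDH1 lies between 0.1 and 1 TPM in both libraries.

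Of 55 cell-matrix adhesion proteins, 50 were on (90.9%, against 57.9% of protein-coding genes), and 19 were abundant. FLNA, the actin crosslinker filamin A, led with 1769 and 1756 TPM, followed by ACTN4 with 865 and 923 TPM and the zyxin gene ZYX with 625 and 660 TPM. TLN1 exceeded its paralog TLN2 (21.1 and 17.0 TPM) by 18.4-fold in library a (17.7 to 19.2) and 21.96-fold in library b (21.04 to 22.9). Their ratio of means moved from 19.99 to 16.4 with transcript length. VCL, vinculin, which binds talin under load, had 370 and 332 TPM. LPXN, leupaxin, a paxillin relative best known from blood cells, had 617 and 534 TPM, well above PXN with 58.0 and 56.6 TPM. PXN shares over 20% of its exon bases with a gene on the other strand, so its level and this gap are uncertain.

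Kindlins activate integrins together with talin. FERMT2 had 117 and 114 TPM and FERMT1, the kindlin of epithelia, 33.5 and 26.8 TPM, while FERMT3, the kindlin of blood cells, was low with 1.09 and 0.475 TPM. FERMT1 was thus on in cells whose other epithelial genes were mostly off. The kinase PTK2 (FAK) had 54.9 and 50.2 TPM and SRC 24.2 TPM in each library. ILK had 17.3 and 16.6 TPM, but 78.5% of its exon bases lie in a gene on the opposite strand, so its level is uncertain. TNS4 and KANK3 had 0 counts and KANK4 0 and 3.

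The actin cytoskeleton list was on in 33 of 35 genes, 29 of them abundant. ACTB exceeded ACTG1 by 1.81-fold (1.79 to 1.82) in library a and 1.83-fold (1.82 to 1.84) in library b, the closest agreement of any ratio computed. The ratio of their means moved from 1.82 to 2.49 with transcript length, so its size is uncertain beyond the counting intervals. PFN1 (profilin) had 2928 and 3034 TPM, MYH9, the heavy chain of nonmuscle myosin, 2896 and 2849 TPM, and MYL9, a myosin light chain, 1421 and 1357 TPM. MYH10, the second nonmuscle heavy chain, had 179 and 169 TPM, and MYH14 had 1 count in library a and 0 in b. Cardiac actin ACTC1 (1.46 and 1.11 TPM) and skeletal actin ACTA1 (0 and 0.244 TPM) were near or under the line.

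Among 44 collagen chains, 23 were on, 10 were low and 11 were off. The chains of type I collagen led. COL1A1 exceeded COL1A2 (3392 and 3267 TPM) by 1.56-fold in library a (1.55 to 1.57) and 1.67-fold in library b (1.67 to 1.68). Their ratio of means moved from 1.62 to 1.18 with transcript length. COL3A1 had 2668 and 2474 TPM. The 3 main chains of type VI collagen lay close together, COL6A1 with 2177 and 2287 TPM, COL6A2 with 1806 and 2007 TPM and COL6A3 with 1962 and 1780 TPM. Of the chains that start fibrils, COL5A1 had 555 and 565 TPM and COL5A2 655 and 551 TPM. The basement membrane chains COL4A1 (501 and 417 TPM) and COL4A2 (281 and 267 TPM) were abundant, while COL4A3 and COL4A4 were off.

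Fibrillar, microfibrillar and basement membrane collagens were thus all abundant in 1 cell line. The cartilage chains COL2A1, COL9A1 and COL10A1 had 0 counts. COL7A1, the anchoring fibril collagen usually made at epithelial borders, had 178 and 191 TPM, and COL17A1, a hemidesmosome collagen, 3.50 and 2.94 TPM. COL14A1 was the 1 collagen whose libraries lay at least 2-fold apart, with 8.08 TPM in library a and 3.80 TPM in library b.

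Basement membrane genes formed a partial set, with 12 of 16 on. Of the gamma and beta chains of laminin, LAMC1 had 819 and 708 TPM, LAMB1 401 and 367 TPM and LAMB2 222 and 212 TPM. The alpha chains, without which a laminin is not assembled, were far lower. LAMA5 had 55.2 and 63.9 TPM, LAMA2 11.2 and 8.59 TPM, LAMA4 10.1 and 6.75 TPM and LAMA1 2.66 and 2.17 TPM, and LAMA3 was low with 0.672 and 0.538 TPM. LAMB3 (52.6 and 47.7 TPM), an epithelial partner of LAMA3, was on. NID1 (nidogen-1) was off with 4 and 1 counts, while NID2 had 22.4 and 22.9 TPM.

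Fibronectin, elastic fibre and matricellular genes were on in 25 of 33 cases and abundant in 15. Behind FN1, POSTN and SPARC the matricellular genes were CCN2 with 1655 and 1833 TPM and CCN1 with 1654 and 1818 TPM, known targets of YAP and TAZ. With transcript length their means were 1044 and 1109 TPM, under TGFBI with 2186 TPM. As computed here TGFBI had 1439.7 and 1213 TPM and THBS1, thrombospondin-1, 1438 and 1155 TPM. Fibrillin-1 was abundant and FBN2 was not (4.34 and 3.41 TPM), and elastin (ELN) was off with 3 and 1 counts. TNC, tenascin-C, had 49.95 and 40.5 TPM, and COMP had 0 counts.

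Of 27 proteoglycan and hyaluronan genes, 19 were on. BGN (biglycan) had 804 and 924 TPM, VCAN (versican) 445 and 367 TPM, and the hyaluronan receptor CD44 719 and 643 TPM. HAS2, a hyaluronan synthase, had 194 and 150 TPM, above HAS3 with 1.47 and 1.40 TPM. The syndecans were all on, led by SDC2 with 422 and 429 TPM, whereas GPC3 and GPC5 were off with at most 1 count. ACAN, the aggrecan of cartilage, was low with 0.0891 and 0.1001 TPM. The ratio of CD44 to CD24 was 55.4 (49.3 to 62.4) in library a and 47.8 (43.0 to 53.3) in library b. With transcript length the ratio of their means moved from 51.5 to 23.96.

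All 16 matrix crosslinking and processing genes were on and 11 were abundant. SERPINH1, the collagen chaperone, had 825 and 993 TPM, LOXL2 855 and 807 TPM and LOX 420 and 351 TPM. Of 32 genes for matrix proteases and their inhibitors, 24 were on. Among the abundant ones were the inhibitor TIMP3 with 1061 and 1059 TPM, the membrane protease MMP14 with 856 and 883 TPM and the gelatinase MMP2 with 780 and 871 TPM. MMP14 activates MMP2, and both were abundant. MMP9, the other gelatinase, was low with 2 and 5 counts, MMP1 had 2.26 and 2.65 TPM and MMP12 had 0 counts.

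Growth factor receptors were on in 16 of 24 cases. AXL was the most abundant. MET had 293 and 236 TPM and EPHA2 245 and 275 TPM, so their order turned between libraries. IGF1R had 16.03 and 15.1 TPM while INSR, the insulin receptor, was low with 8 and 11 counts (0.103 and 0.123 TPM), so IGF1R exceeded it 156-fold (79.1 to 362) and 123-fold (68.4 to 246). With transcript length the ratio of their means moved from 138 to 68.5. ERBB3 was low with 17 and 21 counts, ERBB4 off with 7 and 2 counts, and FGFR2 had 0 counts. FGFR1, the form usual in mesenchymal cells, had 89.7 and 90.7 TPM.

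HOX genes record the position along the body axis from which a cell comes, and they differed by cluster. Of the HOXA genes 10 of 11 were on, of HOXB 5 of 10, of HOXC 7 of 9 and of HOXD 0 of 9. The highest was HOXC10 with 46.6 and 47.9 TPM, then HOXC8 with 18.001 and 18.6 TPM and HOXC9 with 16.02 and 16.8 TPM. Over the whole HOXD cluster there were 20 counts in library a and 10 in library b, against 2011 and 2336 over HOXC. HOXD8, HOXD9, HOXD10 and HOXD11 had 0 counts in both. HOXD13 was the 1 HOXD gene above the line for off, with 1.04 and 0.452 TPM.

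Across genes the libraries agreed closely at high counts and less at low ones. Over 28873 genes with a count, log2(TPM + 1) correlated at a Pearson r of 0.990 and a Spearman rho of 0.903, a description across genes, which are not independent replicates. Of the 100 most abundant genes of each library, 95 were shared, and of the first 1000, 945. Among 15052 genes with a mean of 1 TPM or more, the median size of the log2 ratio was 0.16. It was 0.35 at 1 to 3 TPM, 0.20 at 3 to 10 TPM, 0.15 at 10 to 30 TPM and 0.10 at 100 to 300 TPM. Counting alone would give 0.30, 0.10, 0.050 and 0.020 in these classes. Spread beyond counting therefore dominated above 10 TPM, and counting spread below 3 TPM.

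At least 2-fold apart were 640 of the 15052 genes (4.25%), 312 higher in library b (2.07%) and 328 higher in library a (2.18%). With 1 library against 1 there is no test. Only 59 of 11693 protein-coding genes were among them (0.505%), and none of these reached a mean of 10 TPM. The other 581 were mostly pseudogenes (197), short noncoding RNAs (188) and long noncoding RNAs (172). At a mean of 10 TPM or more, 15 genes lay 2-fold apart. The furthest was RN7SL1, the RNA of the signal recognition particle, with 55 counts (25.6 TPM) in library a and 840 counts (341 TPM) in library b. The spliceosomal RNA RNU4-2 had 3 and 25 counts and RNU4-1 2 and 29, and the nucleolar RNA SNORA73B had 27 and 103.

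Mitochondrial ribosomal RNAs and replication-dependent histone RNAs, which lack the usual long poly(A) tail, were mostly higher in library b. MT-RNR1 had 1169 and 2201 TPM, and MT-RNR2 4750 and 6265 TPM. Of 37 clustered (replication-dependent) histone genes with 10 counts or more, 32 were higher in library b and 5 in library a, whereas of 9 other histone genes 3 were higher in b and 6 in a. Most clustered histone genes are short. Those of up to 1000 bases were higher in b in 21 of 21 cases, with a median log2 ratio of 1.39. All protein-coding genes on of that length had 79.7% and 0.13. The filters differ, as histone genes needed 10 counts over both libraries together and the others 1 TPM in each. Some short histone genes were low and passed through library b, such as H2BC3 with 0 and 12 counts, so 1.39 and 0.13 do not compare like genes. The most abundant short histone genes lay closer, H1-2 with 99.2 and 123 TPM and H2BC12 with 79.5 and 81.3 TPM. Of the 16 longer ones 11 were higher in b, with a median of 0.52. The clustered genes summed to 345 and 460 TPM. H1-4 had 20 and 61 counts and H4C3 1 and 27. What moved these RNAs was not tested.

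Gene length went with the ratio as well. Over 11534 protein-coding genes on, the log2 ratio of library b over a had a Spearman rho of -0.37 with exon length, a description across genes. Its median was 0.13 for genes of up to 1000 bases and fell by class to -0.16 for genes over 8000 bases, of which 17.7% were higher in library b. Over all genes on, 38.3% were higher in b and the median was -0.061. Ratios of the groups below are read against these values.

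Interferon-stimulated genes were the list furthest from that background. Of 36 genes 29 were on, and 28 of these were higher in library b, with a median log2 ratio of 0.46, and 0.48 after removal of the length trend. IFI6 had 116 and 221 TPM, ISG15 55.0 and 107 TPM, IFIT1 6.24 and 13.0 TPM and BST2 2.02 and 8.05 TPM. Of the 29, 4 lay at least 2-fold apart, IFIT1, BST2, IFITM1 and OAS1. Integrated stress response genes were higher in b in 24 of 27 cases on (median 0.19), with CHAC1 at 31.9 and 46.6 TPM, and TRIB3 at 51.3 and 63.2 TPM. Proliferation genes lay the other way. All 26 were on and 25 were higher in library a, with a median of -0.16, and -0.14 after removal of the length trend. MKI67, the antigen of cycling cells, had 241 and 186 TPM and TOP2A 468 and 350 TPM.

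Adhesion and matrix lists had medians of -0.037 for 50 cell-matrix adhesion genes, -0.077 for 23 collagens, -0.079 for 11 integrin alpha genes and -0.13 for 12 laminin and basement membrane genes. The small lists of 4 integrin beta genes (-0.18) and 6 cadherins (-0.19) lay as far below as the proliferation list. With the length trend removed these 6 medians were 0.089, 0.10, 0.069, -0.013, -0.040 and -0.078, so no direction is given for them. Of these genes on, COL14A1 alone lay 2-fold apart.

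**Figure D3:**
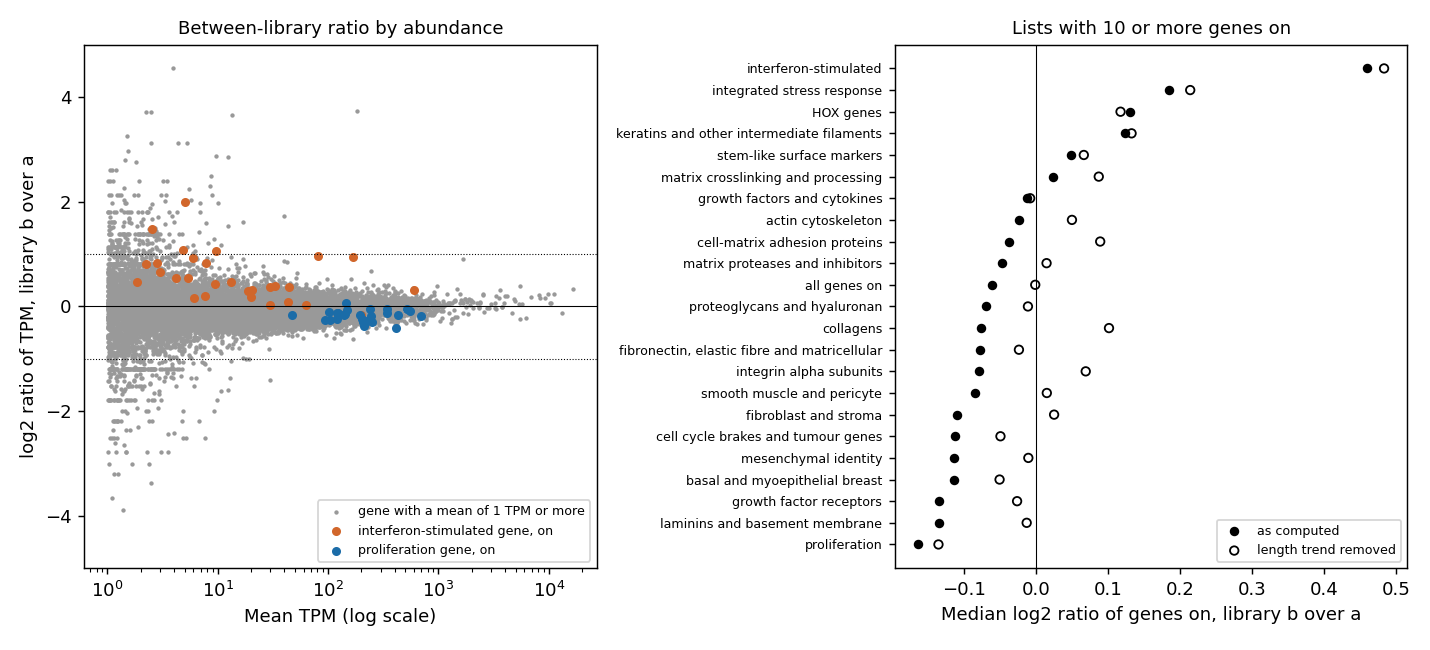
Left, log2 ratio of TPM in SCR library b over a against mean TPM (log axis) for genes with a mean of 1 TPM or more, with dotted lines at 2-fold and interferon-stimulated and proliferation genes coloured. Right, median log2 ratio of the genes on in each list with 10 or more such genes, as computed and with the length trend removed; the interferon-stimulated list lies furthest right at 0.46 and the proliferation list furthest left at -0.16.

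Levels compared between genes depend on the length used. With the exon length of the longest-coding transcript of GENCODE 29 in place of the merged exon length, 65 of 464 list genes on moved up by more than 1.5 times, 120 moved down by more than that, and 9 went under a mean of 1 TPM. FN1 moved from a mean of 6267 to 7254 TPM and ACTG1 from 5762 to 4465 TPM. CDH2 moved from 515 to 330 TPM and TLN1 from 381 to 255 TPM. THY1 moved from 635 to 3876 TPM, CDH13 from 81.3 to 197 TPM, KRT8 from 11.9 to 29.01 TPM and CD24 from 13.2 to 29.7 TPM. The leading gene was the same in 28 of 31 lists. Among the genes on that crossed the line were SNAI1 (1.64 to 0.993 TPM) and ACTC1 (1.29 to 0.477 TPM).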

How the data were processed

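RNA of Hs578T cells was sequenced from poly(A)-selected stranded libraries, and the 2 SCR libraries are described here. The authors deposited read counts per gene, made with featureCounts 2.0.0 on GENCODE 33 per the file headers, with no strand option and without reads that map to several places or genes. The submitters' processing notes name STAR 2.7.9a, Subread 2.0.0 and edgeR 3.34.1. A log2 counts-per-million table was also deposited by the authors, with scaling not given in the sources used here, and served as an alternative only. Depth was 31854322 and 34794346 counts. TPM was computed from counts and the merged exon length of the deposited table (Python 3.11.15, pandas 2.3.3). edgeR 4.0.16 gave TMM factors for an alternative. In simulated counts with counting noise alone, the TPM and 2-fold steps recovered known changes in genes at a mean of 10 TPM or more. The simulation held no spread beyond counting, and changes were not scored below that level.

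Members and the 31 gene lists (761 entries, 696 genes) were chosen with earlier results of these data known. The genes named are the 20 with the highest TPM, the 4 marks, up to 6 leading members of each list, its defining members that were off, members near 1 TPM and genes far apart between libraries; others were named for their role after their values were seen. Gene symbols matched 60698 of 60721 identifiers, and gene types came from GENCODE 29, which is older than the annotation counted. Neither library had a counterpart to test against, so no p-value is given. The chi-square of the 2 libraries' counts was 12.3 per degree of freedom over 17710 genes, so they differ by more than sampling noise. Alternatives changed the length, the detection line, the genes included, the scaling, the pseudocount and the libraries used. Intervals cover counting error only. Results for a few genes of the lists are not reported here.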

Additional observations from a re-analysis of the deposited data

How the results depend on the processing

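Genes on numbered 11672 to 16129 under the alternatives, against 14300, and list genes on 428 (from the smaller set below) to 494, against 464. With either library alone they were 15121 to 15202 and 473 to 474, and the share of the 100 most abundant genes was 28.8% to 30.6%; agreement and 2-fold counts need both libraries. That share, 29.7%, became 33.2% with 200 bases taken off each length, 27.6% with transcript length, 23.3% without mitochondrial genes, 23.998% with protein-coding genes only and 23.8% without length (CPM). Pearson r became 0.997 with protein-coding genes only, 0.998 with CPM and 0.955 with a pseudocount of 0.1. The count of 640 genes 2-fold apart became 964 with 200 bases taken off, 316 with transcript length, 70 with protein-coding genes only, 37 with CPM, 15 at a mean of 10 TPM or more and 1362 at 1.5-fold. The protein-coding and 10 TPM counts cover fewer genes, but the share of genes 2-fold apart was lower there as well. On the main scale it was 0.505% in protein-coding genes against 17.3% in all others. By level it was 17.1% at 1 to 3 TPM against 0.36% at 10 to 30 TPM. What moved the counts was not tested.

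After the data were seen, 3 alternatives were added. Counting only protein-coding genes gave 59 genes 2-fold apart. Leaving out genes that share over 20% of their exon bases gave 428 list genes on of 644, a share of 66.5% against 66.7% of all 696. Among lists with 10 or more genes on, removal of the length trend turned 7 negative medians of the log2 ratio positive, as it did in 2 smaller lists: fibroblast and stroma 0.025, smooth muscle and pericyte 0.015, integrin alpha 0.069, cell-matrix adhesion 0.089, actin 0.050, collagens 0.10 and matrix proteases 0.015. No paired analysis was possible because only 1 group was analysed and its count columns carry no replicate number of the labels. Depth limits genes under about 3 TPM, where counting error makes up most of the spread between libraries.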

Other observations

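Growth factors and cytokines were on in 25 of 36 cases and abundant in 9. INHBA, which encodes the activin A subunit, led with 292 and 246 TPM, and TGFB1 had 183 and 224 TPM and the chemokine CXCL12 195.2 and 201 TPM. With transcript length the order turned, to means of 685 TPM for CXCL12, 520 TPM for VEGFA and 220.1 TPM for INHBA. The inflammatory genes CXCL8 (175 and 158 TPM) and IL6 (115 and 128 TPM) were abundant, whereas TNF was low with 13 and 7 counts and CXCL1 had 3 counts in each library. Of the angiogenic factors, VEGFC had 153 and 148 TPM and VEGFA 68.2 and 86.5 TPM. IGF1 had 0 counts; IGF2 had 0 counts too, but it shares exons with a readthrough gene, so its reads may not have been counted. HGF, the ligand of MET, was low with 9 and 7 counts.

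Of 25 cell cycle brakes and tumour genes, 22 were on. CCND1, cyclin D1, led with 454 and 406 TPM, while CCND2 had 0 and 1 counts. The brake CDKN2A, lost in many tumours, was low with 8 and 17 counts, and its neighbour CDKN2B had 28.2 and 33.7 TPM. CDKN2C stood at 169.6 and 169.1 TPM, and CDKN1A at 66.8 and 65.2 TPM. RB1 had 64.3 and 50.8 TPM. Among the RAS genes, NRAS had 201 and 160 TPM and HRAS 93.7 and 97.3 TPM.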
